A study of Homo sapiens with 6 samples.

Results

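The 10 genes described here encode ligands of the epidermal growth factor (EGF) family and their ERBB receptors: EREG, AREG, BTC, HBEGF, TGFA and NRG1 on the ligand side, and EGFR, ERBB2, ERBB3 and ERBB4 on the receptor side. They are the rows of the deposited count table whose symbol matches one of these names, and each symbol matched 1 of 58735 gene rows. RNA sequencing was run on 3 cultures of PANC1OR and 3 cultures of PANC1, with 1 library per culture. PANC1 is an established cell line from a human carcinoma of the pancreatic duct. PANC1OR is an oxaliplatin-resistant derivative of it, obtained by the submitters through passage in rising amounts of the platinum drug oxaliplatin, and it is 1 subline, so an effect of resistance and a trait of that subline cannot be told apart. Both lines grew in the same serum-containing medium, the parental cultures are labelled untreated, and no source used here says whether the drug was present when PANC1OR was harvested. The members were chosen by gene family with the fold changes between these same libraries in view, so their levels and fold changes are given as a description, and the count of members past a threshold is given for scale only.

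EGF family ligands are made as membrane-anchored precursors that proteases cut loose from the cell surface. A ligand draws receptors of the ERBB family into pairs, which switches on their tyrosine kinases and, through adaptor proteins, the RAS-ERK, PI3-kinase and STAT pathways. EGFR is the receptor of EGF, TGF-alpha, amphiregulin, epigen, epiregulin, betacellulin and heparin-binding EGF, ERBB3 and ERBB4 are the receptors of neuregulins, ERBB2 has no known ligand of its own and acts as a partner, and the kinase of ERBB3 is impaired, so that it signals through a partner. Carcinomas of the pancreatic duct commonly make EGFR together with several of its ligands.

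Reads assigned to genes numbered 10199268 to 26394388 per library. PANC1OR replicate 3 stood apart in base composition: against PANC1OR replicates 1 and 2, the median log2 difference was 1.32 for genes above 60% GC and -0.95 for genes below 40% GC. In PANC1 replicate 2 the matching medians against its own group were 0.34 and -0.25. GC content is therefore given below for several genes whose values stood apart in this library, and the part of base composition in them was not tested. The epithelial keratin genes KRT8 and KRT18 and the duct transcription factor gene SOX9 were expressed in every library. The lowest of these values was 107.6 CPM. KRT19, another keratin gene, had 15.7 to 36.9 CPM in PANC1OR and 243 to 465 CPM in PANC1. CFTR, a chloride channel gene of duct cells, had 0 reads throughout. SOX9, CDH1 and EPCAM were lower in PANC1OR without overlap. They had 127 ± 24.3, 5.67 ± 0.859 and 8.13 ± 2.05 CPM in PANC1OR. In PANC1 they had 202 ± 6.15, 13.3 ± 0.178 and 14.1 ± 1.69 CPM (SD, n = 3 each). Their adjusted p was 0.0447, 0.00613 and 0.0726 by edgeR's quasi-likelihood test. KRT7 had 0.428 to 3.39 CPM, and KRT7, KRT8, KRT18 and MUC1 overlapped between the lines. CPM are reads scaled to the size of the library. Summed CPM over 9 duct markers were 687 to 1401 in PANC1OR and 1072 to 1960 in PANC1, those over 6 immune markers 3.21 to 7.18 in PANC1OR and 0.731 to 0.996 in PANC1, mostly CD14 and CD68, with CD3E at 0 reads, and those over 5 acinar markers 0 to 0.187 in PANC1OR and 0 in PANC1. Of 6 fibroblast markers, which summed to 110.3 to 292 CPM in PANC1OR and 81.1 to 95.9 CPM in PANC1, COL1A1 made up nearly all, and DCN and LUM were at or under 0.112 CPM. Sums over 5 endothelial markers were 0.0826 to 0.312 CPM in PANC1OR and 0.187 to 0.627 CPM in PANC1, and those over 5 endocrine markers, nearly all SYP, were 7.93 to 15.9 CPM in PANC1OR and 16.1 to 23.4 CPM in PANC1, with INS, GCG and SST at 0 reads. The part of these differences in the results below was not tested.

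The ligand genes with the widest gap between the lines lie next to each other on the long arm of chromosome 4, in band 4q13. On the GRCh38 build, EPGN (74308470 to 74316789), EREG (ENSG00000124882, 74365145 to 74388749) and AREG (ENSG00000109321, 74445136 to 74455005) follow each other on the plus strand, 48355 and 56386 bases apart, and BTC (ENSG00000174808, 74744759 to 74794523) lies 289753 bases further on the minus strand. The 250 bases before the start of each gene are shown because these neighbours all had more reads in PANC1OR. The sequences are from RefSeq promoter windows on GRCh38.p14, 5′ to 3′ on the strand of the gene, and the capitals mark matches to searched motifs.
EREG promoter: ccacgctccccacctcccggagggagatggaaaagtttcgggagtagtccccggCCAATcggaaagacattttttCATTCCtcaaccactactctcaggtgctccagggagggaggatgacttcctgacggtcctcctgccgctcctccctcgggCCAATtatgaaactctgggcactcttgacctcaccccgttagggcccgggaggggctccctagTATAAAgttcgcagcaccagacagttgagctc
AREG promoter: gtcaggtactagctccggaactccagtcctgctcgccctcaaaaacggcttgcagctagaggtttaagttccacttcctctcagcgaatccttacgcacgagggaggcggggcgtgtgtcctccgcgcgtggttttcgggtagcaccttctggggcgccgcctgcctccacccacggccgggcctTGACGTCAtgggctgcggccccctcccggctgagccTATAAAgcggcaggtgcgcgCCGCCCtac
BTC promoter: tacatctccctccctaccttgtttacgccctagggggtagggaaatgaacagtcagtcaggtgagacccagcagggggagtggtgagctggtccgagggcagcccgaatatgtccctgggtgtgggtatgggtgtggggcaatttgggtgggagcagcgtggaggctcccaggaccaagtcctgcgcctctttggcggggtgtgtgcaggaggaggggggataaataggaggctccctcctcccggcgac
EPGN promoter: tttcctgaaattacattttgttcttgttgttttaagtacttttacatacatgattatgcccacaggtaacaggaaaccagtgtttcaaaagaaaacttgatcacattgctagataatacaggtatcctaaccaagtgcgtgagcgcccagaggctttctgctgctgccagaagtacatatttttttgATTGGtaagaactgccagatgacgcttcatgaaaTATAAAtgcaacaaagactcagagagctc

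The windows are chr4:74364895-74365144 (plus strand) for EREG, chr4:74444886-74445135 (plus) for AREG, chr4:74794524-74794773 (minus) for BTC and chr4:74308220-74308469 (plus) for EPGN. Each was searched on both strands for 6 motifs, chosen after the windows had been seen, and no matches overlapped. The TATA box, TATAAA, was found 32 bases before the EREG start and 29 bases before the AREG and EPGN starts, and it occurs in 10.7% of 35116 promoter windows of this length. The AREG window held the cyclic AMP response element TGACGTCA, 65 bases before the start, which 1.65% of all windows hold. It also held a GC box, spelled GGGCGG, on the other strand, as do 42.6% of windows. The CCAAT box stood 196 and 95 bases before the EREG start and 63 bases before the EPGN start, there on the other strand, and 32.0% of windows hold it. CATTCC, the core of the TEAD site, stood 175 bases before the EREG start and is in 11.9% of windows. The AP-1 site, searched as TGANTCA and present in 6.57% of windows, was not among these letters, and none of the searched motifs was among those of BTC. A match is a string of letters and does not show binding.

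EREG encodes epiregulin, a ligand of EGFR and ERBB4. It had 5891, 3424 and 1346 reads in PANC1OR replicates 1, 2 and 3, against 18, 9 and 17 reads in PANC1 replicates 1, 2 and 3. Scaled to library size these were 220.2, 213.8 and 111 CPM in PANC1OR, against 1.12, 0.940 and 1.04 CPM in PANC1. The groups did not overlap, and the lowest PANC1OR library was PANC1OR replicate 3. The log2 fold change (PANC1OR over PANC1) was 7.44 ± 0.38 (SE) with 6 libraries and 7.68 ± 0.14 without PANC1OR replicate 3, and the transcript has 36.1% GC. In these bulk libraries, more cells with the transcript and more transcript per cell cannot be told apart.

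AREG encodes amphiregulin, an EGFR ligand. It had 30.5, 27.9 and 19.6 CPM in PANC1OR, against 0.560, 0.313 and 0.245 CPM in PANC1, from 1501 and 16 reads in all. The lines did not overlap, and the log2 fold change was 6.07 ± 0.38. The lowest PANC1OR library was again PANC1OR replicate 3, and the AREG transcript has 45.3% GC. The ratio of summed counts was 71.8, with an exact 95% interval of 44.1 to 126 that covers counting error only. BTC, the gene of betacellulin, which binds EGFR and ERBB4, had 41, 24 and 15 reads in PANC1OR and 0 in each PANC1 library. Its level in PANC1OR was 1.42 ± 0.161 CPM (SD, n = 3). Against a floor of 3 reads over the PANC1 group, or 0.0715 CPM, BTC was at least 19.9-fold higher in PANC1OR. AREG and BTC passed the filter on low counts only through their reads in PANC1OR.

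The remaining ligand members differed less, and 1 of them was lower. NRG1 (ENSG00000157168, plus strand of chromosome 8, 31639222 to 32855666) encodes neuregulin 1, the ligand of ERBB3 and ERBB4. It had 95.6, 95.6 and 81.7 CPM in PANC1OR, against 39.8, 36.2 and 33.6 CPM in PANC1, without overlap and with a log2 fold change of 1.32 ± 0.18. HBEGF (ENSG00000113070, chromosome 5, 140332843 to 140346603) encodes heparin-binding EGF, which binds EGFR and ERBB4 and whose precursor is the diphtheria toxin receptor. It had 8.86, 7.99 and 9.99 CPM in PANC1OR, against 5.29, 5.43 and 4.71 CPM in PANC1, a log2 fold change of 0.80 ± 0.22. The lines did not overlap, and the distance between the nearest libraries, 7.99 and 5.43 CPM, was larger than the SD of either line (1.00 in PANC1OR and 0.383 in PANC1). TGFA (ENSG00000163235, chromosome 2, 70447284 to 70554193), the gene of TGF-alpha, had 5, 3 and 0 reads in PANC1OR, against 6, 4 and 11 reads in PANC1. Its summed counts were 3.43 times higher in PANC1 (95% counting interval 1.46 to 8.96), and every PANC1 library was above every PANC1OR library in CPM, with 0.673 CPM as the highest value.

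**Figure D1:**
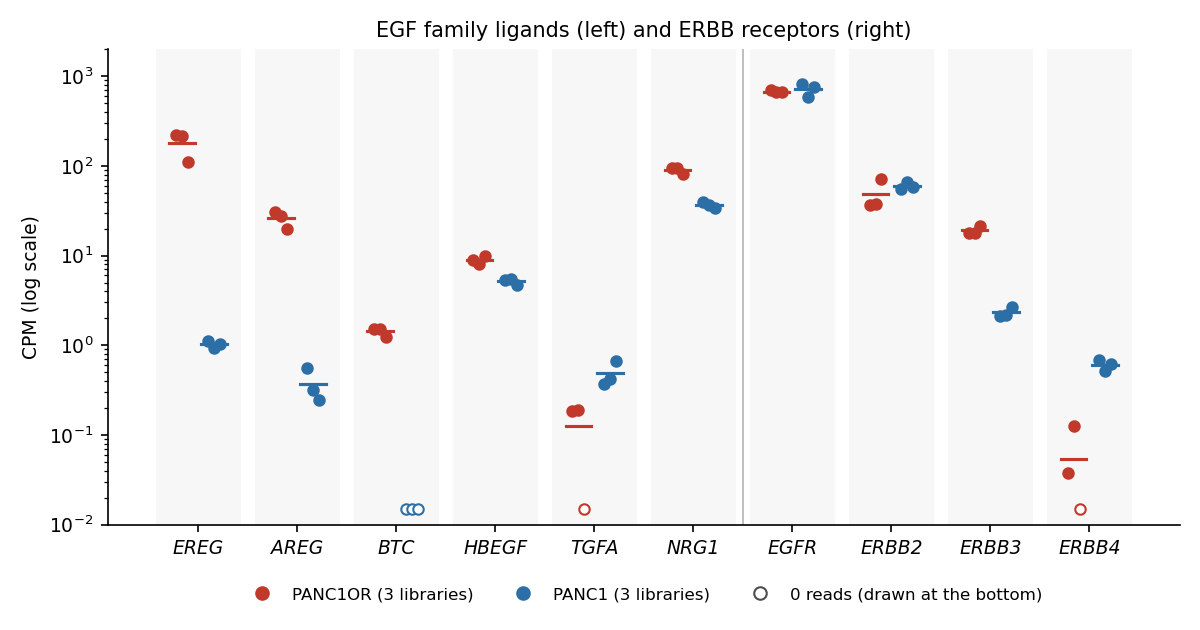
CPM of the 10 genes in each library on a log scale, PANC1OR in red and PANC1 in blue, with the mean of 3 libraries as a line and libraries without reads as open points at the bottom. EREG and AREG are far apart between the lines (EREG at 111 CPM or more in PANC1OR and at most 1.12 CPM in PANC1), while the EGFR and ERBB2 points of the lines overlap.

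Among the receptors, the main one did not separate the lines. EGFR (ENSG00000146648, chromosome 7, 55019017 to 55211628) had 697, 661 and 663 CPM in PANC1OR, against 809, 582 and 768 CPM in PANC1. The PANC1OR libraries fell inside the range of the PANC1 ones, and the log2 fold change was -0.09 ± 0.19. The antisense transcript EGFR-AS1 shares 186 exon bases with EGFR and stood at 8.66 ± 0.674 CPM in PANC1OR and 8.03 ± 2.14 CPM in PANC1 (SD, n = 3 each). ERBB2 (ENSG00000141736, chromosome 17, 39687914 to 39730426), the gene of HER2, had 36.3, 37.8 and 71.7 CPM in PANC1OR, against 55.2, 65.5 and 58.7 CPM in PANC1.

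For ERBB2, PANC1OR replicate 3 was above every PANC1 library and PANC1OR replicates 1 and 2 were below every one. Its log2 fold change was -0.30 ± 0.29 with 6 libraries and -0.70 ± 0.12 without PANC1OR replicate 3, and its transcript has 57.5% GC. ERBB2 also shares 571 exon bases with MIEN1 and 144 with PGAP3, both on the opposite strand. MIEN1 had 22.0, 22.5 and 43.7 CPM in PANC1OR, against 36.2, 58.4 and 36.3 CPM in PANC1.

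ERBB3 (ENSG00000065361, chromosome 12, 56076799 to 56103505), the gene of the neuregulin receptor HER3, had 17.9, 17.9 and 21.6 CPM in PANC1OR, against 2.12, 2.19 and 2.69 CPM in PANC1. The lines did not overlap, the ratio of mean CPM was 8.20 and the log2 fold change was 3.03 ± 0.24. ERBB4 (ENSG00000178568, chromosome 2, 211375717 to 212538841), the other neuregulin receptor gene, had 1, 2 and 0 reads in PANC1OR, against 11, 5 and 10 reads in PANC1. Its summed counts were 11.3 times higher in PANC1 (95% counting interval 3.47 to 58.5), and no library exceeded 0.685 CPM. Of the neuregulin receptor transcripts, ERBB3 was thus higher and ERBB4 lower in PANC1OR.

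Of the 10 genes, 8 entered the fit over all genes, and TGFA and ERBB4 did not, for too few reads. Among these 8, 6 met the threshold of an adjusted p under 0.05 (edgeR's quasi-likelihood test), all higher in PANC1OR and 0 lower, beside 17.8% of all tested genes (10.3% higher and 7.5% lower). HBEGF met it in only 1 of 6 fits without 1 library, that without PANC1OR replicate 3, with adjusted p up to 0.191 in the others. With a replicate block HBEGF did not meet it (adjusted p = 0.142 by the same test). All 3 PANC1OR libraries were above all 3 PANC1 libraries for 6 members, as for 18.9% of tested genes. They were below them for TGFA and ERBB4, as for 17.6% of tested genes, a set that holds neither gene. Without PANC1OR replicate 3, 6 members met the threshold as higher and 1, ERBB2, as lower, beside 44.1% of all tested genes (22.1% higher and 22% lower). A fit offset by each library's GC trend relative to its own line gave 6 members higher and 1, ERBB2, lower, beside 39.2% of tested genes (20.3% higher and 18.9% lower). Such offsets take GC trends out of the spread within each line. They leave a GC difference between the lines in the fold changes, so this fit cannot test for one. These shares are given for scale, and nothing is read from the counts, since the members were picked with this comparison known.

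**Figure D2:**
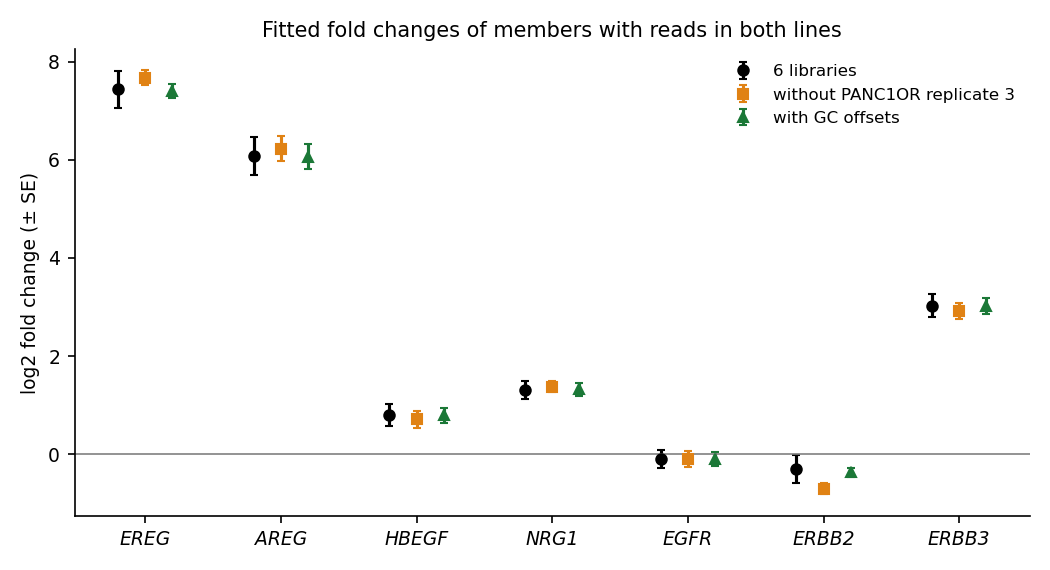
Log2 fold change (PANC1OR over PANC1, with SE) of members that entered the fit and had reads in both lines, from all 6 libraries, without PANC1OR replicate 3 and with GC offsets. ERBB2 moves most between the settings, from -0.30 to -0.70 without PANC1OR replicate 3, while EREG lies between 7.40 and 7.68. The GC offsets are relative to the mean trend of each line and leave a GC difference between the lines in place.

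To set genes of different length side by side, CPM were divided by the merged exon length in kilobases (kb). In PANC1OR the order of mean levels was EGFR at 42.3 ± 1.28, EREG at 31.8 ± 10.7, AREG at 15.8 ± 3.49, ERBB2 at 4.71 ± 1.94, NRG1 at 4.26 ± 0.374, HBEGF at 2.99 ± 0.335, ERBB3 at 1.63 ± 0.178 and BTC at 0.536 ± 0.0606 CPM per kb (SD, n = 3), followed by TGFA and ERBB4 at 0.0254 and 0.00416. Only ERBB2 and NRG1, and at the lower end TGFA and ERBB4, overlapped as neighbours in this order. In PANC1 the order was EGFR at 45.1 ± 7.61, ERBB2 at 5.79 ± 0.509, HBEGF at 1.72 ± 0.128, NRG1 at 1.71 ± 0.144, AREG at 0.227 ± 0.101, ERBB3 at 0.199 ± 0.0266, EREG at 0.181 ± 0.0158, TGFA at 0.0993 ± 0.0329 and ERBB4 at 0.0466 ± 0.00626 CPM per kb, with BTC at 0 reads. Here HBEGF and NRG1 overlapped, as did AREG, ERBB3 and EREG. EREG thus stood next to EGFR in PANC1OR and among the overlapping AREG and ERBB3 in PANC1.

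The make-up of the ligand transcripts differed accordingly. EREG made up 56.4 ± 5.67% and AREG 28.8 ± 1.62% of the summed level of the 6 ligand genes in PANC1OR, against 4.61 ± 0.435% and 5.66 ± 2.09% in PANC1. NRG1 and HBEGF made up 7.95 ± 1.61% and 5.80 ± 2.40% in PANC1OR, against 43.4 ± 0.482% and 43.7 ± 2.14% in PANC1 (SD, n = 3 each). The summed ligand level was 65.2, 62.2 and 39.0 CPM per kb in PANC1OR, against 4.24, 3.95 and 3.62 CPM per kb in PANC1. The summed receptor level was 48.8, 46.7 and 50.4 CPM per kb in PANC1OR, against 56.3, 43.1 and 54.1 CPM per kb in PANC1, with EGFR at 87.0 ± 3.89% in PANC1OR and 87.9 ± 2.83% in PANC1. ERBB3 was 3.36 ± 0.267% of the receptor sum in PANC1OR and 0.393 ± 0.0631% in PANC1. NRG1 has many transcripts and a merged exon length of 21372 bases. With the 11983 bases of its canonical transcript, and likewise for the other genes, NRG1 made up 10.8% of the ligand sum in PANC1OR and 51.9% in PANC1, and EREG 53.4% in PANC1OR and 3.82% in PANC1. Levels moved too: with canonical lengths EGFR had 68.0 ± 2.06 and EREG 39.4 ± 13.3 CPM per kb in PANC1OR. The ligand and receptor sums are therefore not ranked against each other.

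**Figure D3:**
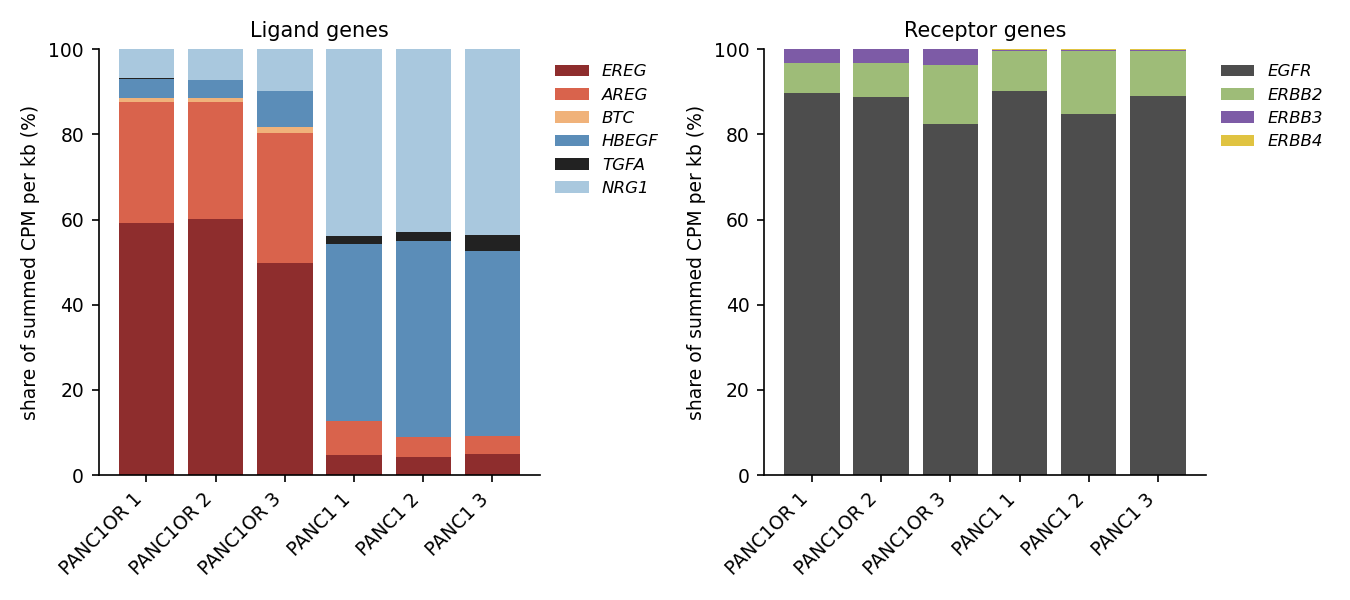
Share (percent) of each gene in the summed CPM per kb of the 6 ligand genes and of the 4 receptor genes, 1 bar per library. EREG and AREG fill most of the ligand bars of PANC1OR and HBEGF and NRG1 those of PANC1, while EGFR holds 82.6% or more of every receptor bar.

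Other ligand genes of the family, listed apart from the members, had few reads with 1 exception. EPGN, the gene of the EGFR ligand epigen, had 56, 42 and 8 reads in PANC1OR, against 1, 0 and 0 reads in PANC1, a ratio of 81.1 with a 95% counting interval of 14.2 to 3233, and did not pass the filter on low counts with 6 libraries. EPGN, with 38.9% GC, passed without PANC1OR replicate 3, its lowest PANC1OR library, and only through its reads in PANC1OR. It was called higher in that fit (adjusted p = 0.000113 by edgeR's quasi-likelihood test), which is given as a description. EGF had 0 reads in PANC1OR and 2 in PANC1, and NRG3 had 1 read in PANC1OR and 0 in PANC1. NRG2, a neuregulin gene, had 12.5, 10.8 and 23.6 CPM in PANC1OR, against 18.7, 18.6 and 15.4 CPM in PANC1 (log2 fold change -0.17 ± 0.32, adjusted p = 0.776 by edgeR's quasi-likelihood test, the source of the adjusted p-values below). NRG4 was at 0.474 ± 0.220 CPM in PANC1OR and 0.797 ± 0.333 CPM in PANC1 (SD, n = 3 each). Neither of these 2 tested genes was called by edgeR or DESeq2 or had an unadjusted p under 0.05, but NRG2, with 61.5% GC, was called lower without PANC1OR replicate 3 (-0.59 ± 0.16, adjusted p = 0.0162) and had a log2 fold change of 0.029 without PANC1OR replicate 2.

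The genes around the chromosome 4 cluster were mostly silent or had few reads. Within 500 kb of the cluster, GENCODE places 26 other genes that are rows of the count table, of which 14 had no reads, 9 had too few reads for the fit and 3 were tested. CXCL1, a neutrophil-attracting chemokine gene, fell to 1.01, 0.687 and 0.578 CPM in PANC1OR, against 13.2, 14.2 and 15.4 CPM in PANC1 (log2 fold change -4.17 ± 0.29, adjusted p = 7.02e-05). MTHFD2L, a mitochondrial folate enzyme gene that ends just before EPGN, was at 11.7 ± 3.73 CPM in PANC1OR and 7.28 ± 0.462 CPM in PANC1 (adjusted p = 0.149, and 0.0018 without PANC1OR replicate 3), and PARM1, beyond BTC, at 0.418 ± 0.0796 CPM in PANC1OR and 0.856 ± 0.194 CPM in PANC1 (adjusted p = 0.127). CXCL1 and PARM1 passed the filter on low counts only through their reads in PANC1, so their fits are given as a description. The chemokine genes CXCL5 and CXCL3 had 0 reads in PANC1OR, against 23 and 11 reads in PANC1, at least 9.93-fold and 5.18-fold lower by a floor of 3 reads over the PANC1OR group.

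**Figure D4:**
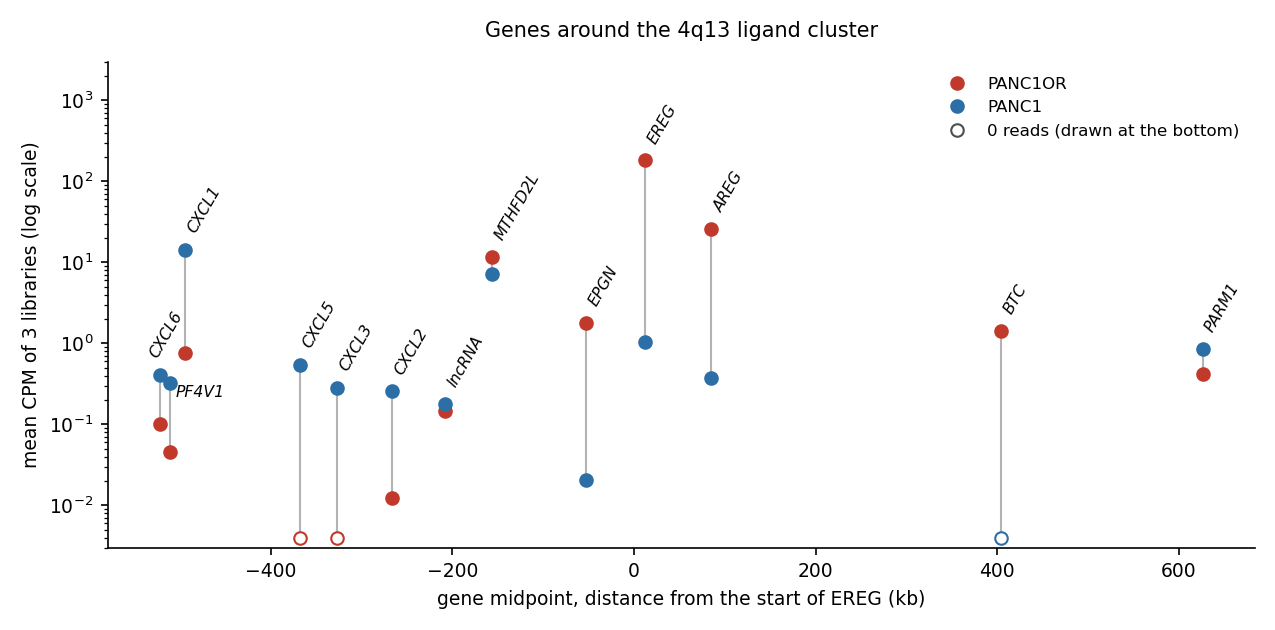
Mean CPM of 3 libraries (log scale) of genes with at least 10 reads in all within 500 kb of the ligand cluster, by distance of the gene midpoint from the EREG start in kb, with PANC1OR in red, PANC1 in blue and open points for 0 reads. EPGN, EREG, AREG and BTC are higher in PANC1OR, and CXCL1, CXCL3 and CXCL5 lie lower.

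The genes with the profile most like EREG, out of 10653 that code for protein and averaged 5 CPM or more, were EDIL3, SGIP1, SLC8A1, DHRS9 and AFF3. Their centred log2 CPM differed from those of EREG by a root mean square of 0.157 (EDIL3) to 0.328 (AFF3) over the 6 libraries. EDIL3, the closest, which encodes an integrin-binding matrix protein, had 116, 123 and 66.2 CPM in PANC1OR, against 0.498, 0.418 and 0.673 CPM in PANC1. It too was lowest among the PANC1OR libraries in replicate 3, which follows from the way it was picked, and its transcript has 38.6% GC. Closest to ERBB2, which had the lowest fold change of the members with at least 5 CPM, were TEPSIN, CCAR2, DCAKD, IER5 and GUCD1, at 0.0285 (TEPSIN) to 0.0459 (GUCD1). These genes have 49.8% to 61.0% GC and, like ERBB2, were highest among the PANC1OR libraries in replicate 3. That shared order also follows from picking them by profile over the same libraries.

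Genes that shed or carry the ligands were called in both directions. Of 17 tested, 2 rose and 3 fell, beside 17.8% of all tested genes, and their median log2 fold change was 0.07, beside 0.04 for all tested genes. RHBDL2, a rhomboid protease that can cleave the EGF precursor, rose to 8.16 ± 0.831 CPM in PANC1OR, against 3.11 ± 0.670 CPM in PANC1 (1.38 ± 0.25, adjusted p = 0.00706). BACE2, an aspartic protease gene, rose by 1.29 ± 0.21 on the log2 scale (adjusted p = 0.00418), and ADAM12, a metalloprotease that can shed HBEGF, fell to 1.47 ± 0.417 CPM in PANC1OR, against 5.18 ± 1.51 CPM in PANC1 (-1.79 ± 0.34, adjusted p = 0.00811). NRDC, which encodes the shedding enhancer nardilysin (-0.75 ± 0.19, adjusted p = 0.0302), and FURIN, which encodes a proprotein convertase (-1.15 ± 0.32, adjusted p = 0.044), also fell. Both kept the call in 1 of 6 fits without 1 library, that without PANC1OR replicate 3, with adjusted p up to 0.119 and 0.138 in the others. Without PANC1OR replicate 3, 4 genes of the list rose and 8 fell, in a fit that called 44.1% of all tested genes, with a median of -0.42 beside -0.02 for all genes, and 3 were called when any other library was left out. The main sheddase genes did not pass: ADAM17 had a log2 fold change of 0.56 ± 0.19 (adjusted p = 0.0895) and ADAM10 one of 0.10 ± 0.26 (adjusted p = 0.849). Exon bases shared with genes on the other strand numbered 1645 for ADAM17, with IAH1, and 641 for NRDC.

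Receptor co-factors had 2 risen and 2 fallen genes of 14 tested, 28.6% called beside 17.8% of all tested genes, with a median log2 fold change of 0.14, and of -0.13 without PANC1OR replicate 3. FAM83B, an adaptor of EGFR and RAS signalling, had 1194, 706 and 246 reads in PANC1OR and 0 in each PANC1 library, at least 509-fold higher (adjusted p = 0.000267). It passed the filter on low counts only through its reads in PANC1OR, so its call is given as a description. AGR2, whose protein assists the folding of EGFR and mucins, rose to 573, 620.4 and 484 CPM in PANC1OR, against 145, 171 and 147 CPM in PANC1 (1.86 ± 0.18, adjusted p = 0.000338). CD44, a hyaluronan receptor that can present HBEGF, fell to 1566 ± 197 CPM in PANC1OR, against 3252 ± 126 CPM in PANC1 (-1.05 ± 0.18, adjusted p = 0.0053). HSP90AB1, the gene of a chaperone on which ERBB2 depends and which has near-identical pseudogene copies, fell by 0.71 ± 0.18 on the log2 scale (adjusted p = 0.032), and lost the call when any library but PANC1OR replicate 3 was left out (adjusted p 0.0686 to 0.126).

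Of the genes that restrain or degrade the receptors, 3 rose and 1 fell of 26 tested, a called share of 15.4%, near the 17.8% of all tested genes, with a median log2 fold change of 0.01. LRIG1, a transmembrane protein that promotes degradation of ERBB receptors, fell to 2.02, 1.75 and 1.98 CPM in PANC1OR, against 5.79, 4.28 and 5.57 CPM in PANC1 (-1.44 ± 0.25, adjusted p = 0.0055). STAM, an endosomal sorting gene, rose to 87.6 ± 20.1 CPM in PANC1OR, against 31.1 ± 0.796 CPM in PANC1 (adjusted p = 0.00253). EPN2, an endocytic adaptor gene, and PTPRJ, a receptor phosphatase that can dephosphorylate EGFR, rose by 0.93 ± 0.23 and 0.62 ± 0.17 (adjusted p = 0.0261 and 0.043). EPN2 was called in 2 and PTPRJ in 1 of 6 fits without 1 library, with adjusted p up to 0.125 and 0.162. Without PANC1OR replicate 3, 8 genes rose and 8 fell, beside 44.1% of all tested genes called, and 2 were called without PANC1OR replicate 1 or PANC1 replicate 1, 2 or 3. LRIG1 shares 2669 exon bases with SLC25A26 and EPN2 2248 with B9D1, both on the other strand. The feedback inhibitor gene ERRFI1 (-0.45 ± 0.16, adjusted p = 0.106) and the ubiquitin ligase genes CBL (-0.07 ± 0.19, adjusted p = 0.854) and CBLB (0.22 ± 0.24, adjusted p = 0.618) did not pass.

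The adaptors and proximal signalling genes had 5 risen and 10 fallen members of 33 tested, 45.5% called beside 17.8% of all tested genes, and a median log2 fold change of -0.33. EPS8, an EGFR substrate that acts on actin, rose to 264, 251 and 188 CPM in PANC1OR, against 48.1, 46.8 and 51.0 CPM in PANC1 (2.27 ± 0.20, adjusted p = 0.000191). SHC4, a SHC-type adaptor gene, rose to 64, 36 and 18 reads in PANC1OR, against 1, 1 and 3 reads in PANC1, a ratio of 18.1 with a counting interval of 7.52 to 56.6 (adjusted p = 0.000855). SHC4 passed the filter on low counts only through its reads in PANC1OR, so its call is given as a description. The adaptor gene SHC2 (2.88 ± 0.50, adjusted p = 0.00541) and the kinase genes SRC (1.56 ± 0.34, 0.0153) and PTK6 (1.98 ± 0.39, 0.0103) also rose. In PANC1OR replicate 3, SHC2, SRC and PTK6 had 24.6, 86.5 and 19.1 CPM, against 8.37, 41.0 and 8.37 CPM as the higher of PANC1OR replicates 1 and 2, and these transcripts have 57.6% to 68.5% GC. SRC was not called without PANC1 replicate 1, 2 or 3, nor PTK6 without PANC1 replicate 1 or 3, with adjusted p up to 0.0813 and 0.0636.

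On the fallen side, PIK3R1, the regulatory subunit p85-alpha of PI3-kinase, fell to 14.9, 14.7 and 9.25 CPM in PANC1OR, against 50.7, 40.5 and 47.7 CPM in PANC1 (-1.83 ± 0.25, adjusted p = 0.0017). PLCG2, a phospholipase C gene, fell to 3.88 ± 0.773 CPM in PANC1OR, against 12.5 ± 0.866 CPM in PANC1 (-1.70 ± 0.24, adjusted p = 0.00202), and shares 4141 exon bases with an unnamed long non-coding RNA gene on its own strand. The other fallen genes were named after their values were seen. They were the transcription factor genes STAT3 (-1.13 ± 0.19), STAT5A (-1.45 ± 0.24) and STAT5B (-0.86 ± 0.21), close paralogs that share 415 exon bases on opposite strands, the Src-family kinase genes LYN (-1.20 ± 0.19) and FYN (-1.05 ± 0.27), the adaptor genes GAB1 (-1.14 ± 0.28) and GRB10 (-0.76 ± 0.19), and PIK3R3 (-0.86 ± 0.17), which shares 1292 exon bases with a read-through gene. Of these, STAT3, STAT5A and LYN were called in all 6 fits without 1 library, and STAT5B, FYN and GRB10 in 1, PIK3R3 in 2 and GAB1 in 3. Without PANC1 replicate 1 or 3, 8 genes of the list were called, and without PANC1OR replicate 3, 8 rose and 14 fell, beside 44.1% of all tested genes called. GRB2 (-0.33 ± 0.23, adjusted p = 0.387) and SOS1 (0.50 ± 0.31, adjusted p = 0.331), the link from ERBB receptors to RAS, did not pass.

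Transcripts that EGFR signalling is known to induce had 5 risen and 2 fallen members of 25 tested, 28.0% called beside 17.8% of all tested genes (10.3% higher and 7.5% lower), with a median log2 fold change of 0.36, and of 0.04 without PANC1OR replicate 3. CCND1, the gene of cyclin D1, rose to 465, 452 and 501 CPM in PANC1OR, against 240, 209 and 230 CPM in PANC1 (1.06 ± 0.16, adjusted p = 0.003). SPRED2, an inhibitor of the RAS-ERK pathway, rose to 248 ± 6.54 CPM in PANC1OR, against 97.1 ± 7.58 CPM in PANC1 (1.35 ± 0.16, adjusted p = 0.000939). DUSP5, an ERK phosphatase gene, rose by 1.36 ± 0.21 (adjusted p = 0.00296), PLAUR, the urokinase receptor gene, by 2.37 ± 0.33 (0.00177) and ETV4, an ETS transcription factor gene, by 1.80 ± 0.32 (0.00628) on the log2 scale. In PANC1OR replicate 3, ETV4 had 45.7 CPM, against 22.8 and 22.4 CPM in PANC1OR replicates 1 and 2, and it has 60.6% GC. FOS, an immediate-early gene, fell to 3.70, 1.19 and 3.72 CPM in PANC1OR, against 7.35, 7.21 and 10.6 CPM in PANC1 (-1.55 ± 0.42, adjusted p = 0.0393), and SPRY1, a receptor tyrosine kinase inhibitor gene, fell by 0.81 ± 0.16 (adjusted p = 0.0111). FOS was called in 3 and SPRY1 in 2 of 6 fits without 1 library, with adjusted p up to 0.159 and 0.0745. DUSP6 (-0.24 ± 0.24, adjusted p = 0.576), EGR1 (0.59 ± 0.43, adjusted p = 0.418) and SPRY4 (-0.49 ± 0.19, adjusted p = 0.115) did not pass. Without PANC1OR replicate 3, 8 genes of the list rose and 5 fell, beside 44.1% of all tested genes called.

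**Figure D5:**
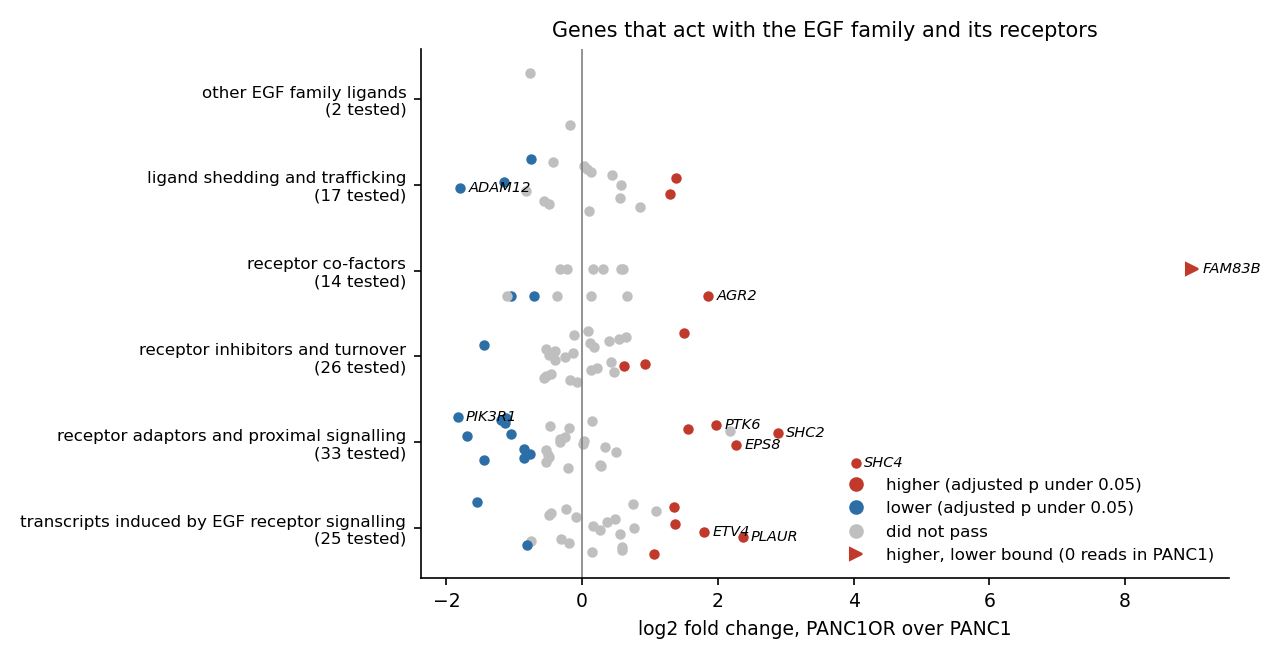
Log2 fold change (PANC1OR over PANC1) of the tested genes of 6 lists, 1 point per gene, in red or blue where the adjusted p was under 0.05 (higher or lower) and in grey otherwise, with a triangle at the lower bound for a gene without PANC1 reads. The adaptor list holds 15 called genes of 33, and FAM83B lies apart on the right at its bound of 509-fold.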

How the data were processed

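Messenger RNA libraries from 3 PANC1OR and 3 PANC1 cultures were sequenced, and the authors deposited 1 table of read counts per gene, without normalization. The design text of the series, and the tools per the submitters' processing notes, give read checks with FastQC 0.11.5, trimming with cutadapt under Trim Galore 0.4.2, alignment to GRCh38 by STAR 2.5 and counting by featureCounts in Subread 1.6.2. Which annotation release was used, and whether counting heeded strand or multi-mapped reads, is not given in sources used here, so reads of overlapping genes cannot be separated. Of the columns of the table, 5 hold no values.

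Genes kept by filterByExpr, 18751, were scaled with TMM factors and compared by the quasi-likelihood F test of edgeR 4.0.16 in R 4.3.3, without covariates, in place of the likelihood ratio test that the design text names. Calls were made at a Benjamini-Hochberg adjusted p under 0.05 over all tested genes. SEs derive from the F statistic. The fitting code was tested on simulated data. CPM use the TMM-scaled library total, and log2 CPM a prior count of 2. Positions, exon lengths and GC content (longest transcript) are from GENCODE v44 on GRCh38, matched by identifier, with GC for 99.4% of tested genes. Each line was sampled as 3 cultures, and the p-values reflect only how far such cultures vary, which may be technical. No libraries agreed within sampling noise, the lowest chi-square per degree of freedom being 3.59. The members, lists and alternatives were chosen with earlier results of these data known. Genes named are all members, up to 4 genes per list with the smallest p and a mean of at least 1 CPM, genes that complete a count of 5 or fewer, neighbours within 500 kb of the chromosome 4 cluster and the 5 genes closest in profile to the members with the highest and lowest fold change. Where genes are said not to have passed, they were picked for their role. Alternatives were DESeq2 1.42.0, RLE factors, no filter, the likelihood ratio test, GC offsets (loess trend of each library against its group), a replicate block and leaving libraries out. 1 duct marker of the list is not reported here. The canonical-transcript length was added after the data were seen.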

Additional observations from a re-analysis of the deposited data

How the results depend on the processing

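TGFA and ERBB4 had too few reads for a fit, and many calls moved when PANC1OR replicate 3 was left out. The cause was not tested. Over all genes, 3345 of 18751 tested were called, against 7350 of 18751 (39.2%) with GC offsets. With neither PANC1 replicate 2 nor PANC1OR replicate 3, 11422 of 19517 were called. Without 1 library the called genes ranged from 1821 of 19570 (without PANC1 replicate 3) to 8663 of 19650 (without PANC1OR replicate 3). With GC offsets, 12 of 17 shedding genes, 10 of 14 co-factors and 14 of 26 inhibitors were called. So were 25 of 33 adaptors and 13 of 25 induced transcripts. With neither PANC1 replicate 2 nor PANC1OR replicate 3, the called genes were 15, 11, 22, 28 and 21 in the same order, and 2 for the other ligands. Without 1 library, shedding genes called were 3 to 12, other ligands 0 to 2 and co-factors 3 to 6. Inhibitors called were 2 to 16, adaptors 8 to 22 and induced transcripts 5 to 13. The list counts stand beside the counts over all genes of the same fits, and nothing is read from them. Other ligands called were 1 without the filter on low counts. DESeq2 called 4067 genes, the likelihood ratio test 4169, RLE factors 3359 and no filter 4281, and none of the 8 members and 36 list genes refitted under these 4 settings turned its sign. NRG2, at -0.17 with 6 libraries, turned its sign without PANC1OR replicate 2, with a range of -0.59 to 0.029 over the fits without 1 library.

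The replicate numbers showed no steady pairing: deviations of same-numbered libraries correlated by 0.46, -0.45 and -0.22, and PANC1OR replicate 3 was closest to PANC1 replicate 2 (0.51). These deviations include the shift of PANC1OR replicate 3 in base composition, so whether cultures were paired cannot be told from them. With a replicate block, 2324 of 18751 tested genes were called, and 5 members in place of 6, as HBEGF lost the call. Of the lists, 2 inhibitor genes were called in place of 4 and 10 adaptors in place of 15.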
